A study of Homo sapiens with 8 samples.

Results

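The genes described here are 33 members of the HLA and antigen presentation machinery, out of 26364 genes in the count table. They were taken by gene symbol from a list drawn up for this description with earlier results of these data known. All 33 had a row, and 32 had enough reads to be tested. HLA-G, with 2 to 13 counts per library, was not tested. By role, 15 members belong to the class I pathway, 15 to the class II pathway, and 3 are subunits of the RFX complex, which acts on the promoters of both classes.

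RNA was sequenced from 2 stable clones of LN229, an established human glioblastoma cell line. Clone Surv-GFP carries the plasmid pcDNA3.1-survivin-eGFP with a functional nuclear export sequence (NES), and its Survivin is mostly cytoplasmic. Clone SurvNESmut-GFP carries the same fusion with a mutated NES, which traps Survivin in the nucleus. Cells of each clone were kept without drug or exposed for 48 h to 50 µM temozolomide (TMZ), a DNA-methylating drug of glioblastoma therapy, with libraries a and b in each of the 4 groups. Both clones were grown in DMEM with serum under G418 selection, and TMZ came from a stock in DMSO. Each form of Survivin is represented by 1 clone, so the clone and the Survivin variant cannot be told apart. The study describes biological replicates run in technical duplicate. Which of these the letters mark is not stated, and p-values measure the spread between the letters, which may be technical.

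Between 15826923 and 18861603 reads per library fell on genes, and across genes the r between the log2 CPM of replicates was 0.994 or higher (CPM, counts scaled to library size). BIRC5, which encodes Survivin, had 1113 and 1152 CPM in the untreated Surv-GFP libraries and 407 and 414 CPM in the untreated SurvNESmut-GFP libraries, transgene and endogenous gene together. With TMZ it was higher in Surv-GFP, at 1938 and 2029 CPM, and lower in SurvNESmut-GFP, at 262 and 253 CPM. The clones thus differed in BIRC5 level as well as in Survivin variant, more so with TMZ. The part of this level in the differences described here was not tested. Of 10 glial and glioblastoma markers, 8 were above 10 counts in at least 1 library of the series, with VIM, NES (nestin) and CD44 the highest in 3 of the 4 groups and GFAP, the astrocyte filament gene, barely so at 0 to 17 counts. Several of them differed between the clones as the class II genes did. S100B, a calcium-binding protein of glia, had 798 and 756 CPM in untreated Surv-GFP and 41.2 and 40.1 in untreated SurvNESmut-GFP, 19.1-fold lower, and the transcription factors OLIG2 and SOX2 were 4.89-fold and 2.63-fold lower. VIM was lower by 0.32 on the log2 scale, NES and CD44 were higher by 0.39 and 0.19, and EGFR did not pass the test (0.14, adjusted p 0.21, edgeR). The sum of the 10 markers was 5972 to 6033 CPM in untreated Surv-GFP, 3871 to 3957 in TMZ-exposed Surv-GFP, 4663 to 4858 in untreated and 4132 to 4269 in TMZ-exposed SurvNESmut-GFP, and the part of these markers in the differences described here was not tested. Markers of the professional antigen-presenting cells were near 0. Of 7 markers of B cells and dendritic cells, 5 were at 0 in all 8 libraries and none passed 10 counts. Of 10 macrophage and microglia markers, 4 were at 0 throughout and CD68 was the single one above 10 counts, with a sum over the list of 12.3 to 22.3 CPM. Fewer cells with a transcript and less of it per cell cannot be told apart in such bulk RNA.

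HLA class I molecules sit on nearly every nucleated cell and show peptides from the cell's own proteins to CD8 T cells. Their heavy chain pairs with B2M, and their peptides are cut by the immunoproteasome, pumped into the endoplasmic reticulum by TAP, trimmed by ERAP and loaded with the help of tapasin. HLA class II molecules show peptides of the endosomal route to CD4 T cells and are usually restricted to professional antigen-presenting cells, although interferon gamma can switch them on elsewhere and some glioma lines make them. Class II promoters share a set of X and Y boxes bound by the RFX complex, CREB and NF-Y, on which the coactivator CIITA assembles. NLRC5, a relative of CIITA, acts in the same way on class I promoters, which also hold sites for NF-kappaB and interferon regulatory factors.

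The promoters of both classes are shown because the members divided along this line between the clones. The sequences are the human reference (RefSeq, GRCh38.p14), not the alleles of LN229, and an entry was matched for 28 of the 33 members. HLA-DRA, CIITA, CTSS, HLA-E and NLRC5 had no entry, so their promoters were not searched. Each runs 5′ to 3′ in the direction of the gene from base -180 to base -21 relative to the start, 160 bases in all. Capitals mark the motifs searched on both strands: ATTGG, the core bound by NF-Y (CCAAT on the other strand), TGATGATG, letters found at the X box of several class II promoters, GGGGATTC, an NF-kappaB-type core, and the GAAA repeat (GAAA, any 2 bases, GAAA), a core of sites for interferon regulatory factors. These letters were chosen with the sequences in view.
HLA-DRB1 (chr6:32589869-32590028, minus strand): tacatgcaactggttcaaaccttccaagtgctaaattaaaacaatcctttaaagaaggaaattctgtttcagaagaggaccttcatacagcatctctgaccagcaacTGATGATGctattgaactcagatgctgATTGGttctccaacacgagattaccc
HLA-DQB1 (chr6:32666678-32666837, minus strand): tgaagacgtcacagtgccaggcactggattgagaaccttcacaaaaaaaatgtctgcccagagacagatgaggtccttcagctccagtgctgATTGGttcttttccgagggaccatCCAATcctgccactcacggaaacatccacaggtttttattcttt
HLA-DMA (chr6:32953118-32953277, minus strand): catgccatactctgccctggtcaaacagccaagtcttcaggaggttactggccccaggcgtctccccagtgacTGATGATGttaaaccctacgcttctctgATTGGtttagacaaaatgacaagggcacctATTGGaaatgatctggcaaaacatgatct
HLA-DOB (chr6:32817023-32817182, minus strand): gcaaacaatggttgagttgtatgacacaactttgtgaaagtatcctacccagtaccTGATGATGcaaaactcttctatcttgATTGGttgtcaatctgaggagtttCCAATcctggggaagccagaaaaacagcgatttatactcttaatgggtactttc
CD74 (chr5:150412931-150413090, minus strand): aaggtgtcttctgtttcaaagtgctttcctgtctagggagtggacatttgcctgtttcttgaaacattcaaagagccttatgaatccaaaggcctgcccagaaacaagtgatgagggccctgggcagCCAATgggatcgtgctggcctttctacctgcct
The class I side is represented by a heavy chain, the light chain and the transporter.
HLA-B (chr6:31357200-31357359, minus strand): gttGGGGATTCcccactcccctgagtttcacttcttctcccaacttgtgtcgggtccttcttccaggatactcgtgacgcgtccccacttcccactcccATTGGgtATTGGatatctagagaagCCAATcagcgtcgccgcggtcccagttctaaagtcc
B2M (chr15:44711337-44711496, plus strand): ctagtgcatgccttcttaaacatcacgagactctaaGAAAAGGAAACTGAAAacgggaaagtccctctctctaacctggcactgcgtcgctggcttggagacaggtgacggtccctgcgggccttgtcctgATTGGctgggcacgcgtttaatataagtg
TAP1 (chr6:32853725-32853884, minus strand): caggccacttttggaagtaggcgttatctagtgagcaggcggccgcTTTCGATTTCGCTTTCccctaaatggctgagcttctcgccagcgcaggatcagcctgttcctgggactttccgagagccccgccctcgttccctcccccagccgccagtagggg

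The 250 bases before each listed start were searched, and a gene was counted if any of its starts had a match. ATTGG was found in 10 of the 11 class II chains, DM, DO and CD74 genes with an entry (90.9%). It was found in 8 of 13 genes of class I heavy chains, B2M and peptide supply (61.5%) and in 37.0% of the 27305 genes in the table. TGATGATG was found in 4 of the 11 class II genes, namely HLA-DRB1, HLA-DMA, HLA-DMB and HLA-DOB, in 0 of the 13 class I genes and in 1.01% of all genes. The GAAA repeat was present in 7 class I genes (53.8%), among them HLA-F, B2M, TAP1 and TAP2, in 0 class II genes and in 3.71% of all. GGGGATTC was found upstream of HLA-B, HLA-C and HLA-G, in 0 class II genes and in 0.952% of all. IFI30, a further class II member with an entry, held ATTGG and none of the other motifs, and the RFX genes were not counted in either set. As the letters were chosen with these sequences in view, the shares are a description and not a test of enrichment. A match describes letters in this window and does not show that a factor binds there.

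**Figure D1:**
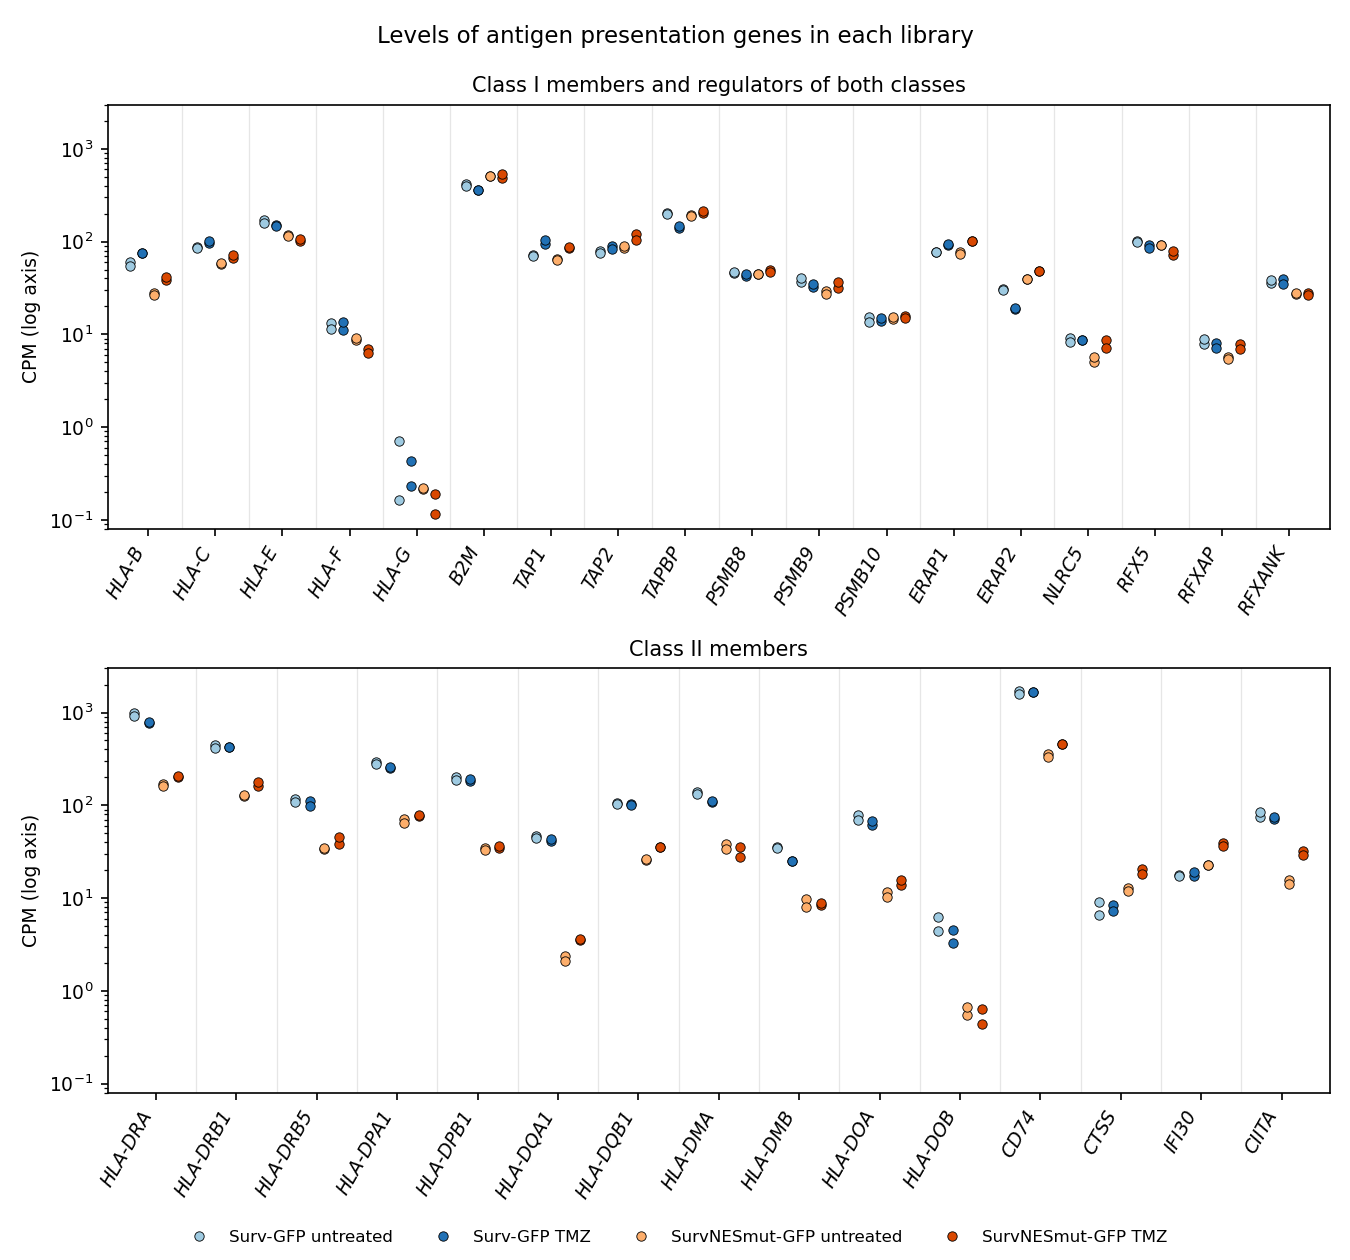
Levels of the 33 members in CPM (log axis) in each of the 8 libraries, with a point per library and a colour per group. The class II members except CTSS and IFI30 stood higher in both Surv-GFP groups than in both SurvNESmut-GFP groups, and class I members lay closer together.

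Class II transcripts were abundant in these glioblastoma cells, above all in Surv-GFP. CD74, the invariant chain that escorts class II molecules to the endosome, ranked between 16 and 24 by count among all genes in the 4 Surv-GFP libraries and between 269 and 503 in the SurvNESmut-GFP libraries. Per kilobase of merged exons, HLA-DRA was the highest class II chain in untreated Surv-GFP with 743 ± 33.9 CPM (SD, n = 2). HLA-DRB1 followed with 349 ± 18.4, HLA-DPA1 with 169 ± 5.26 and HLA-DPB1 with 125 ± 6.79 CPM per kb. HLA-DRB5 with 88.8 ± 4.53, HLA-DQB1 with 58.5 ± 1.5 and HLA-DQA1 with 25.9 ± 1.18 CPM per kb made up the lower end. Among the class I heavy chains HLA-E had 63.9 ± 3.10, HLA-C 55.9 ± 1.12, HLA-B 36.5 ± 2.43 and HLA-F 6.26 ± 0.640 CPM per kb. In untreated SurvNESmut-GFP the order of the class I chains was the same, but HLA-DRB5 with 26.9 ± 0.432 stood above HLA-DPB1 with 21.7 ± 0.571 CPM per kb, the reverse of Surv-GFP.

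Summed per kilobase, the 7 class II chains had 1610 and 1508 CPM in the untreated Surv-GFP libraries and 341 and 332 in the untreated SurvNESmut-GFP libraries. The 5 class I heavy chains among the members had 168 and 157.5 CPM per kb in untreated Surv-GFP and 104.5 and 103 in untreated SurvNESmut-GFP. Both sums were lower in SurvNESmut-GFP by more than the spread between letters. The ratio of class II to class I was 9.58 ± 0.00280 in untreated Surv-GFP and 3.24 ± 0.0349 in untreated SurvNESmut-GFP (SD, n = 2 each). After TMZ it stood at 7.94 ± 0.0146 for Surv-GFP and 3.69 ± 0.0324 for SurvNESmut-GFP. Without division by length these ratios were 6.56, 2.16, 5.64 and 2.56 in the same order. The ratio thus moved down in the first clone and up in the second, which is given as a description without a test. The sums cover the listed members and not every class I gene.

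**Figure D2:**
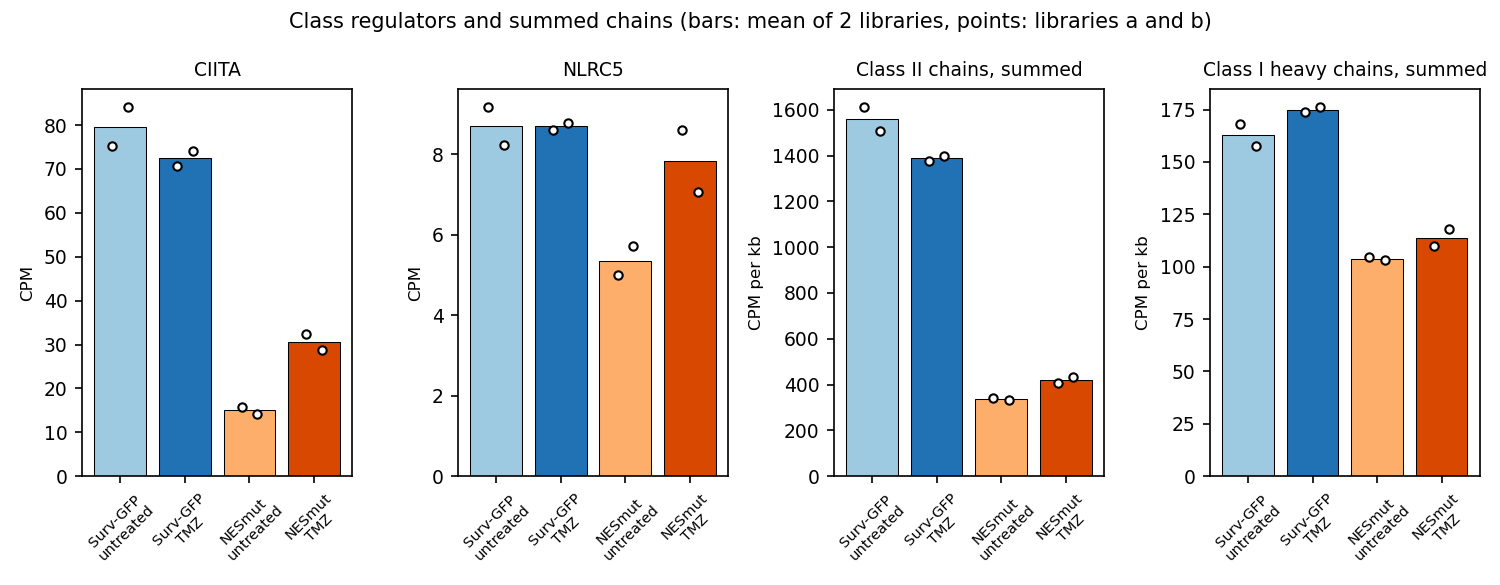
CPM of CIITA and NLRC5, and summed CPM per kilobase of the 7 class II chains and the 5 class I heavy chains, in the 4 groups (NESmut: SurvNESmut-GFP). Bars are means of 2 libraries and points are the libraries; CIITA in untreated SurvNESmut-GFP (14.3 and 15.8 CPM) lay far below untreated Surv-GFP (75.3 and 84.0 CPM), and NLRC5 differed less.

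The comparison of the untreated clones asks how they differ before the drug. Of the 32 tested members, 23 were lower in SurvNESmut-GFP than in Surv-GFP and 5 were higher at an adjusted p of 0.05 by edgeR's quasi-likelihood F test. Over all 14201 genes tested, 29.4% were lower and 34.7% higher. The median log2 difference (SurvNESmut-GFP minus Surv-GFP) was -0.59 over the members and 0.03 over all genes. The classes stood apart: the 15 class II members had a median of -2.09, with 13 lower and 2 higher, and the 14 tested class I members had a median of -0.12, with 7 lower and 3 higher. Without overlap between the libraries of the clones, 25 members were lower and 5 higher, against 38.8% and 44.3% of all genes.

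All 7 class II chains were lower in SurvNESmut-GFP. HLA-DRA, the alpha chain shared by every DR molecule, had 981 and 919.9 CPM in untreated Surv-GFP and 169 and 159.8 CPM in untreated SurvNESmut-GFP. It was 5.78-fold lower, a log2 difference of -2.53 (standard error 0.05, adjusted p 1.4e-15, edgeR). HLA-DRB1, its main beta chain partner, had 445 and 413 against 127 and 129 CPM, a log2 difference of -1.75 ± 0.06 (SE). The libraries of the clones did not overlap for either gene, with every Surv-GFP value above every SurvNESmut-GFP value.

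The DP pair behaved like the DR pair. HLA-DPA1 had 294 and 281 CPM in untreated Surv-GFP and 70.7 and 64.0 in untreated SurvNESmut-GFP, 4.27-fold lower. HLA-DPB1 had 203 and 188 against 34.5 and 33.3 CPM, 5.76-fold lower. The widest gap among all members was that of HLA-DQA1, with 47.0 and 44.0 CPM in untreated Surv-GFP and 2.39 and 2.11 CPM in untreated SurvNESmut-GFP. Its 38 and 44 counts in the latter libraries are well above the floor of 3 counts, and the log2 difference was -4.33 (standard error 0.11, adjusted p 1.3e-14, edgeR). Its beta chain partner HLA-DQB1 had 106 and 102 against 26.0 and 26.2 CPM and was 3.99-fold lower. HLA-DRB5, a second DR beta chain carried by some haplotypes, had 116 and 108 against 33.5 and 34.2 CPM and was 3.31-fold lower. Of the 50-base windows of the HLA-DRB1 transcript, 9.92% also occur in another gene, so reads may have been divided between paralogs and the separate DRB values are less certain than that of HLA-DRA, for which this share was 0%.

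Loading factors of class II fell into 2 sets. HLA-DMA and HLA-DMB form the editor that exchanges the invariant chain remnant for peptide, and HLA-DOA and HLA-DOB form its inhibitor. HLA-DMA had 139.7 and 132 CPM in untreated Surv-GFP against 38.2 and 33.4 in untreated SurvNESmut-GFP, and HLA-DMB had 35.9 and 34.4 against 9.87 and 7.95. HLA-DOA had 78.9 and 68.9 against 11.7 and 10.4 CPM, and HLA-DOB had 6.18 and 4.36 against 0.542 and 0.667 CPM. CD74 had 1706 and 1582 CPM in untreated Surv-GFP and 361 and 331 in untreated SurvNESmut-GFP, 4.76-fold lower. These 5 genes were lower in SurvNESmut-GFP with log2 differences from -1.93 for HLA-DMA to -3.11 for HLA-DOB and adjusted p of at most 1.6e-07. Annotated transcripts of HLA-DMB and HLA-DOB share 29% and 36.5% of their 50-base windows with other gene entries, which may have taken part of their reads.

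The endosomal enzymes went the other way. CTSS, cathepsin S, which cuts the invariant chain, had 9.05 and 6.62 CPM in untreated Surv-GFP and 12.9 and 12.1 in untreated SurvNESmut-GFP, a log2 difference of 0.67 ± 0.14 (SE, adjusted p 0.00053, edgeR). IFI30, a thiol reductase that opens disulfide bonds of antigens, had 17.7 and 17.2 against 22.4 and 22.7 CPM, a log2 difference of 0.37 ± 0.09 (SE, adjusted p 0.0011, edgeR). Neither gene overlapped between the clones.

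CIITA, the class II coactivator, was 5.28-fold lower in untreated SurvNESmut-GFP than in untreated Surv-GFP, with 15.8 and 14.3 against 75.3 and 84.0 CPM. The log2 difference was -2.40 (standard error 0.08, adjusted p 3.7e-13, edgeR), close to the median of -2.25 over the 13 genes made up of the chains, DM, DO, CD74 and CIITA itself. The RFX subunits differed less. RFX5, RFXAP and RFXANK were lower in untreated SurvNESmut-GFP by 0.15, 0.59 and 0.43 on the log2 scale, each past the threshold. The RFX5 call was lost without either untreated library of Surv-GFP (adjusted p 0.18 and 0.061 without a and b) and without either untreated library of SurvNESmut-GFP (0.11 each).

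Class I members showed smaller and mixed differences between the untreated clones. All 4 tested heavy chains were lower in SurvNESmut-GFP. HLA-B had 60.6 and 55.2 CPM in untreated Surv-GFP and 27.6 and 26.7 in untreated SurvNESmut-GFP, a log2 difference of -1.09 (standard error 0.07, adjusted p 7.9e-10, edgeR). HLA-C had 88.1 and 85.6 against 57.4 and 58.6 CPM, and HLA-E, a nonclassical chain read by NK cells, had 172 and 160.4 against 119 and 114 CPM, with log2 differences of -0.58 and -0.51. HLA-F differed by -0.49 (adjusted p 0.0031, edgeR, and 0.054 without the untreated Surv-GFP replicate a). In contrast B2M, the light chain, had 423 and 402 against 507 and 512 CPM and was the higher one in SurvNESmut-GFP, with a log2 difference of 0.31 ± 0.05 (SE, adjusted p 7.5e-05, edgeR). Heavy and light chain thus differed in opposite directions between the clones.

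Peptide supply differed little at baseline. Of its 8 genes, 2 were higher (TAP2 by 0.19 and ERAP2 by 0.38) and 2 lower in untreated SurvNESmut-GFP. Over all genes tested, 34.7% were higher and 29.4% lower. The other 4 peptide supply genes did not pass the test, with log2 differences from -0.09 for TAPBP to 0.05 for PSMB10. The lower ones were TAP1, a subunit of the peptide transporter, with 72.6 and 69.7 against 64.5 and 63.1 CPM, and PSMB9, an immunoproteasome subunit, with 36.8 and 40.2 against 29.7 and 26.9 CPM. TAP1 differed by -0.16 (adjusted p 0.029, edgeR) and PSMB9 by -0.44 (adjusted p 0.00027, edgeR). The TAP1 call was lost without the untreated Surv-GFP replicate a (adjusted p 0.18) and without either untreated SurvNESmut-GFP library (0.074 and 0.14), and the TAP2 call under 8 of 16 alternatives. NLRC5, the class I coactivator, had 9.16 and 8.22 against 4.99 and 5.72 CPM and was lower by 0.70 on the log2 scale in untreated SurvNESmut-GFP (standard error 0.14, adjusted p 0.00046, edgeR).

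**Figure D3:**
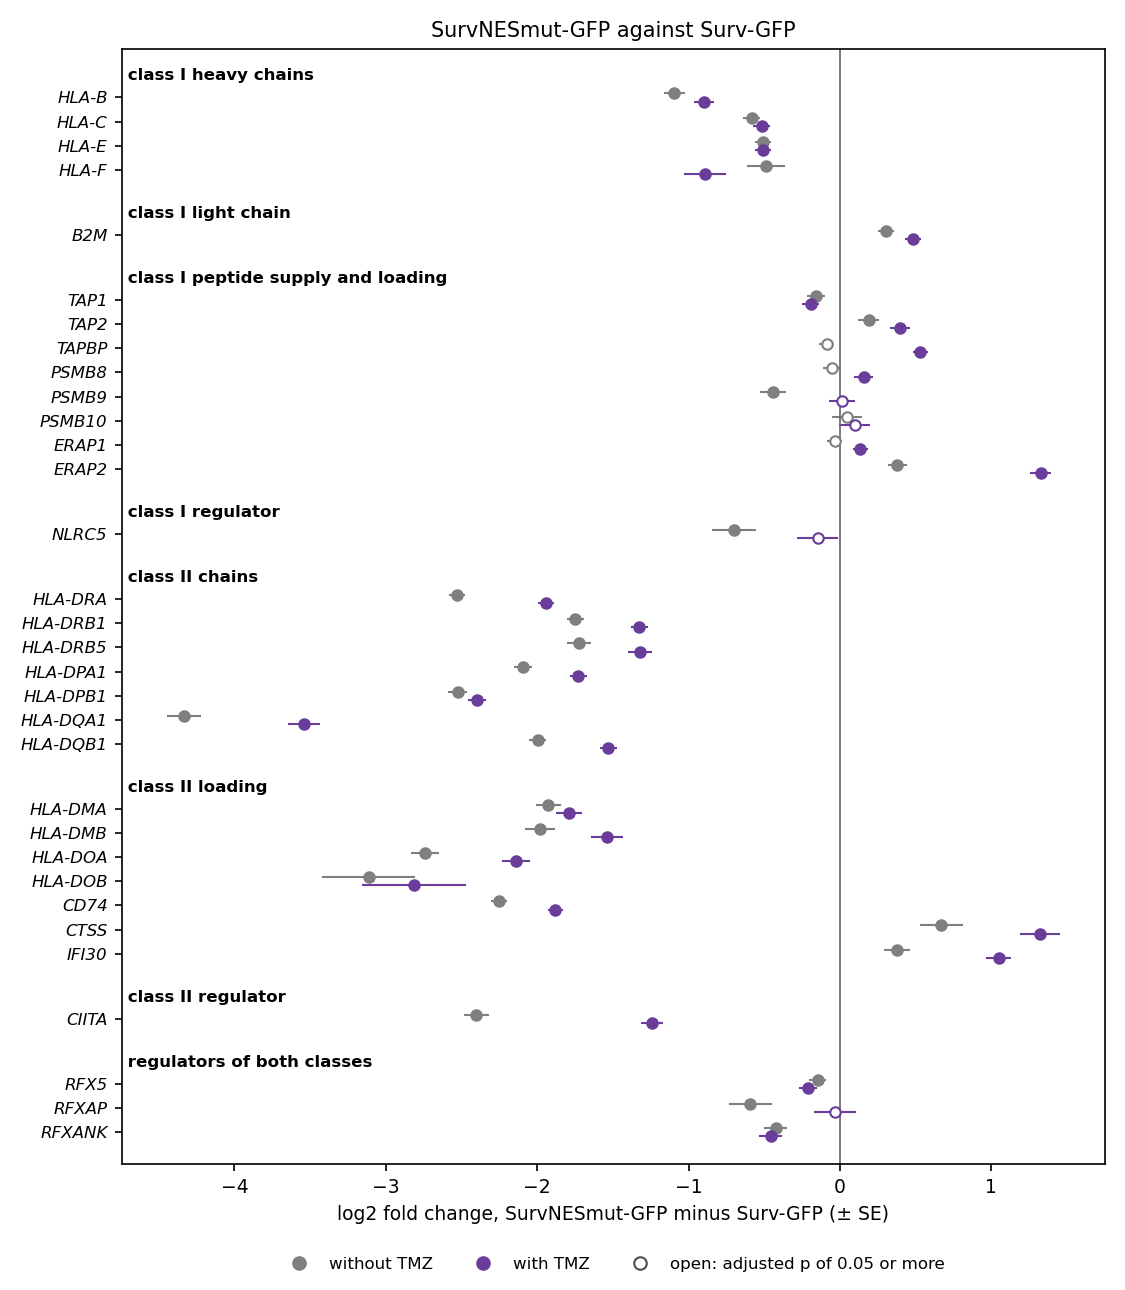
Log2 fold change of SurvNESmut-GFP minus Surv-GFP without TMZ (grey) and with TMZ (purple) for the 32 tested members, grouped by role, with standard errors and open symbols where the adjusted p was 0.05 or more. The class II chains, DM, DO, CD74 and CIITA lay between -4.33 and -1.73 without TMZ, and CTSS and IFI30 were above 0.

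Class I and class II genes that lie side by side differed to unlike extents. Of the class I members, 4 lie inside the class II region of chromosome 6, between HLA-DOB and HLA-DMB (gene order from RefSeq, GRCh38.p14; the build of the counts is not known and no positions are given). The log2 differences of TAP2, PSMB8, TAP1 and PSMB9 in that stretch were 0.19, -0.05, -0.16 and -0.44, whereas their class II neighbours HLA-DOB and HLA-DMB had -3.11 and -1.98. Between HLA-DRA and TAPBP, the 11 class II members ranged from -4.33 to -1.73 and the 5 class I members from -0.44 to 0.19. The 16 other tested genes had a median of -0.16, with 8 lower and 1 higher, against 29.4% and 34.7% of all genes tested. Among these 16 neighbours, BRD2, between HLA-DMA and HLA-DOA, had -0.10 (adjusted p 0.087, edgeR). COL11A2, a collagen gene next to the DP genes in this order and named after its value was seen, had -3.65 (adjusted p 3.2e-15, edgeR). The DR pseudogene HLA-DRB6 had -1.45 (adjusted p 0.0018, edgeR) and HCG25 had -1.41 (adjusted p 0.020, edgeR), and the remaining neighbours lay between -0.45 and 1.04.

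**Figure D4:**
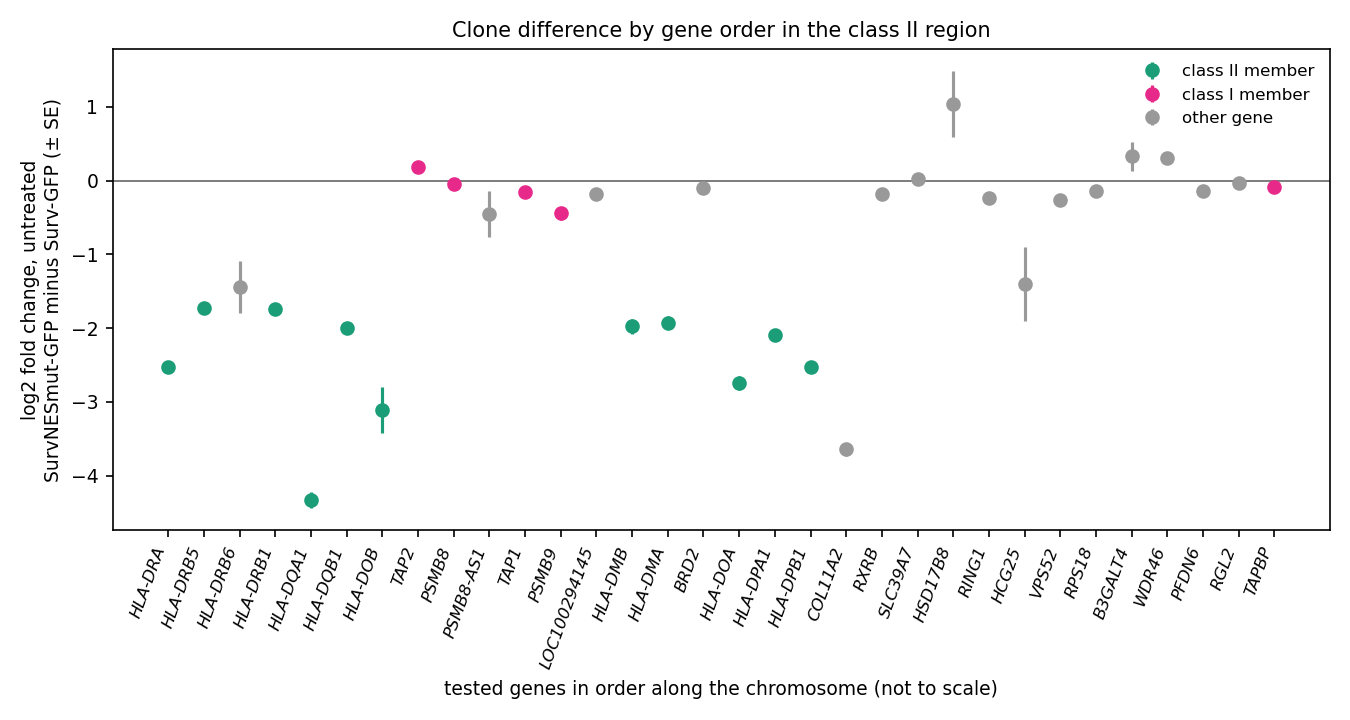
Log2 fold change of untreated SurvNESmut-GFP minus untreated Surv-GFP (± SE) for the 32 tested genes from HLA-DRA to TAPBP, in chromosome order and not to scale. Class II members (green) lay at -1.73 or below, whereas TAP2, PSMB8, TAP1 and PSMB9 (pink), which lie among them, lay between -0.44 and 0.19.

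With TMZ the clones were compared once more. Of the 32 members, 20 were lower and 8 higher in SurvNESmut-GFP, against 34.7% and 34.5% of all genes tested. Without overlap, 21 were lower and 9 higher (41.7% of all genes in each direction). The 13 class II genes lower without TMZ were lower here too, with a median log2 difference of -1.79 and a range from -3.54 for HLA-DQA1 to -1.24 for CIITA. CTSS and IFI30 were higher by 1.32 and 1.05. Of the 14 tested class I members, 5 were lower and 6 higher, with a median of 0.06. ERAP2, a peptide-trimming protease, had 18.8 and 19.3 CPM in TMZ-exposed Surv-GFP and 47.8 and 47.7 CPM in TMZ-exposed SurvNESmut-GFP, 2.51-fold higher in the latter (log2 difference 1.33, standard error 0.07, adjusted p 5.4e-11, edgeR). NLRC5 differed by -0.15 (adjusted p 0.35, edgeR) and PSMB9 by 0.01 (adjusted p 0.90, edgeR), so that neither call of the untreated clones held. The clone differences share their libraries with the TMZ effects below.

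Next, the response to TMZ was examined within each clone. In Surv-GFP, 5 members rose and 10 fell, against 30.1% and 28.9% of all genes tested, with a median log2 fold change of -0.09 over the members and 0.00 over all genes. The 5 that rose were class I genes, and of the 15 class II members 0 rose and 5 fell. The groups did not overlap for 5 members upward and 14 downward (39.9% and 39.6% of all genes). Of the 8 libraries, leaving out the untreated Surv-GFP replicate a left 6 falls, and leaving out its untreated or TMZ replicate b left 3 rises.

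HLA-B went from 60.6 and 55.2 to 74.5 and 74.5 CPM in Surv-GFP, a log2 fold change of 0.36 ± 0.06 (SE, adjusted p 9.3e-05, edgeR). HLA-C went from 88.1 and 85.6 to 97.2 and 101 CPM, a rise of 0.19 (adjusted p 0.0062, edgeR). TAP1 rose the most among the members, from 72.6 and 69.7 to 94.3 and 105 CPM, by 0.48 ± 0.06 (SE, adjusted p 1.9e-06, edgeR). ERAP1 rose by 0.27, and TAP2 by 0.17 with an adjusted p of 0.047 that was above 0.05 under 11 of 16 alternatives. HLA-E fell by 0.15 and B2M by 0.19 on the log2 scale. TAPBP, which encodes tapasin, went from 206 and 197 to 139 and 149 CPM, a fall of 0.48. The largest fall was that of ERAP2, from 30.7 and 30.0 to 18.8 and 19.3 CPM, by 0.67 ± 0.07 (SE, adjusted p 6.2e-07, edgeR). Thus ERAP1 and ERAP2, 2 proteases of the same task, moved in opposite directions. PSMB9, which lies next to TAP1, was at 36.8 and 40.2 CPM without and 32.4 and 35.2 with TMZ, a log2 change of -0.19 (adjusted p 0.063, edgeR, and under 0.05 under 8 of 16 alternatives). NLRC5 was at 9.16 and 8.22 without and 8.61 and 8.78 CPM with TMZ, groups that overlapped (log2 change -0.00, adjusted p 1.0, edgeR). Leaving out the TMZ replicate b took the adjusted p of HLA-C to 0.13 and of HLA-E to 0.055. HLA-C also missed the threshold with DESeq2 (0.058). Without the untreated replicate a the adjusted p of HLA-E and of B2M were 0.24 and 0.068, without the untreated replicate b that of HLA-C was 0.056, and without the TMZ replicate a that of HLA-E was 0.062.

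On the class II side of Surv-GFP, HLA-DRA went from 981 and 919.9 to 771 and 785 CPM, a fall of 0.29 ± 0.05 (SE, adjusted p 7.3e-05, edgeR). HLA-DMA went from 139.7 and 132 to 109 and 111 CPM and HLA-DMB from 35.9 and 34.4 to 25.0 and 25.2 CPM, falls of 0.31 and 0.49 on the log2 scale. HLA-DPA1, at 249.8 and 262 CPM with TMZ, fell by 0.17 and HLA-DOA, at 61.9 and 67.0 CPM, by 0.20. Both of these calls were lost without the untreated replicate a (adjusted p 0.12 and 0.39) and without the TMZ replicate a (0.13 and 0.23), and that of HLA-DOA also with DESeq2 (0.064). CD74, at 1662 and 1687 CPM with TMZ, and HLA-DRB1, at 422 and 428, lay within their untreated range (log2 changes 0.03 and -0.02). CIITA was at 70.7 and 74.2 CPM after TMZ, a log2 change of -0.14 that did not pass the test (adjusted p 0.092, edgeR) but did under 6 of 16 alternatives, with the lowest adjusted p at 0.030. The other class II members, HLA-DRB5, HLA-DPB1, HLA-DQA1, HLA-DQB1, HLA-DOB, CTSS and IFI30, had log2 changes from -0.44 to 0.07 and did not pass the test. The lowest of these, HLA-DOB, passed under 3 of 16 alternatives, with no filter (-0.46, adjusted p 0.035), on omission of the untreated replicate b (-0.67, 0.026) and of the TMZ replicate b (-0.72, 0.028). RFX5 fell by 0.20 (adjusted p 0.0060, edgeR, and 0.063 without the untreated replicate a), and RFXAP and RFXANK had changes of -0.16 and 0.01 that did not pass.

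In SurvNESmut-GFP the members moved mostly upward. Of the 32, 21 rose and 3 fell after TMZ, against 18.6% and 19.1% of all genes tested, with a median log2 fold change of 0.29 over the members and 0.00 over all genes. The class II members contributed 11 rises and 0 falls and had a median of 0.40. The class I members contributed 9 rises and 2 falls and had a median of 0.26. Without overlap, 23 members were higher and 3 lower with TMZ (34.5% and 33.5% of all genes). The TMZ-exposed SurvNESmut-GFP libraries stood further apart from each other than those of the other groups, with a mean chi-square per gene of 5.74 against 2.203 to 2.66, and their replicate a had the highest share of reads in no feature, 14.3% against 11.2 to 12.8% in the other 7 libraries. With the TMZ replicate a left out 19 members rose and 2 fell, and with the TMZ replicate b left out 17 rose and 3 fell. With the untreated replicate b left out, 14 members rose and 1 fell, and without the untreated replicate a 1 fell.

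CIITA had the largest rise of the members in SurvNESmut-GFP, from 15.8 and 14.3 to 32.4 and 28.8 CPM, 2.03-fold (log2 1.02, standard error 0.09, adjusted p 3.0e-07, edgeR). Over 16 alternatives this log2 change ranged from 0.94 to 1.11. Even so, the TMZ-exposed SurvNESmut-GFP libraries stayed below the lowest Surv-GFP library, at 70.7 CPM. The class II chains rose less than CIITA. HLA-DRA went from 169 and 159.8 to 200.3 and 205 CPM (log2 0.30 ± 0.05 SE), HLA-DRB1 from 127 and 129 to 161 and 177 (0.41 ± 0.06) and HLA-DQB1 from 26.0 and 26.2 to 35.5 and 35.4 CPM (0.44 ± 0.06). HLA-DQA1 went from 2.39 and 2.11 to 3.57 and 3.66 CPM, a rise of 0.68 ± 0.18 (SE, adjusted p 0.0075, edgeR). HLA-DRB5, at 38.3 and 45.8 CPM with TMZ, rose by 0.31 and HLA-DPA1, at 76.4 and 78.0, by 0.20. HLA-DPB1, from 34.5 and 33.3 to 34.9 and 36.7 CPM, did not pass the test (log2 0.08, adjusted p 0.41, edgeR). With untreated replicate b omitted, the adjusted p was 0.21 for HLA-DPA1, 0.061 for HLA-DQA1 and 0.051 for HLA-DRB5, and HLA-DRB5 also missed the threshold without the untreated replicate a (0.074) and the TMZ replicate b (0.10).

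Among the class II loading factors, CD74 rose from 361 and 331 to 457 and 454 CPM in SurvNESmut-GFP (log2 0.40, standard error 0.05, adjusted p 1.5e-05, edgeR). IFI30 rose from 22.4 and 22.7 to 39.3 and 36.2 CPM, by 0.74 ± 0.08 (SE), and CTSS from 12.9 and 12.1 to 20.5 and 18.3 CPM, by 0.64 ± 0.12 (SE). HLA-DOA rose from 11.7 and 10.4 to 13.7 and 15.6 CPM, by 0.41, with an adjusted p of 0.012 that became 0.12 on omission of the untreated replicate b and 0.069 on omission of the TMZ replicate b. The DM editor did not take part. HLA-DMA was at 38.2 and 33.4 CPM without and 27.8 and 35.9 with TMZ (log2 -0.17, adjusted p 0.17, edgeR), and without the TMZ replicate b the change was -0.36 with an adjusted p of 0.0016. HLA-DMB was at 9.87 and 7.95 without and 8.36 and 8.95 CPM with TMZ (log2 -0.04, adjusted p 0.81, edgeR). HLA-DOB stayed at 7 to 12 counts per library.

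Of the class I heavy chains in SurvNESmut-GFP, HLA-B and HLA-C rose and HLA-E and HLA-F fell. Of the 8 peptide supply genes 6 rose and 0 fell, against 18.6% and 19.1% of all genes tested. The other 2, PSMB8 and PSMB10, did not pass the test (0.13 and 0.04 on the log2 scale). HLA-B went from 27.6 and 26.7 to 38.3 and 41.9 CPM, by 0.56 ± 0.07 (SE, adjusted p 1.6e-05, edgeR), and HLA-C from 57.4 and 58.6 to 66.2 and 72.4 CPM, by 0.26 ± 0.06 (SE). HLA-E, from 119 and 114 to 103 and 108 CPM, fell by 0.15 with an adjusted p of 0.039 that missed 0.05 under 9 of 16 alternatives. HLA-F fell by 0.40 (adjusted p 0.038, edgeR, and above 0.05 under 5 of 16 alternatives). B2M was at 507 and 512 CPM without and 480.2 and 529 with TMZ, so the groups overlapped. TAP1 went from 64.5 and 63.1 to 85.9 and 87.7 CPM, by 0.45 ± 0.06 (SE, adjusted p 1.7e-05, edgeR), close to its rise in Surv-GFP. TAP2 rose by 0.37, ERAP1 by 0.44, ERAP2 by 0.27 and PSMB9 by 0.27, the last from 29.7 and 26.9 to 31.4 and 36.7 CPM. The PSMB9 rise (adjusted p 0.026, edgeR) was lost without the untreated replicate b (0.21) or the TMZ replicate b (0.20) and with DESeq2 (0.076). TAPBP, from 192 and 187 to 205 and 212 CPM, rose by 0.14 (adjusted p 0.045, edgeR), a call that 11 of 16 alternatives did not make. NLRC5 rose from 4.99 and 5.72 to 8.59 and 7.06 CPM, by 0.55 ± 0.15 (SE, adjusted p 0.0081, edgeR), with an adjusted p of 0.085 without the untreated replicate a and 0.10 without the TMZ replicate a.

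The RFX subunits of SurvNESmut-GFP did not move together. RFX5 fell by 0.26 (adjusted p 0.0018, edgeR), from 90.8 and 90.9 to 72.5 and 79.1 CPM. RFXAP rose by 0.40 (adjusted p 0.040, edgeR), and this call was lost under 5 of 16 alternatives: without the untreated replicate a (0.11), the untreated replicate b (0.16) or the TMZ replicate a (0.23), with DESeq2 (0.17) and with the compared libraries alone (0.059). RFXANK was at 27.4 to 28.0 CPM without and 26.9 to 27.7 CPM with TMZ.

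**Figure D5:**
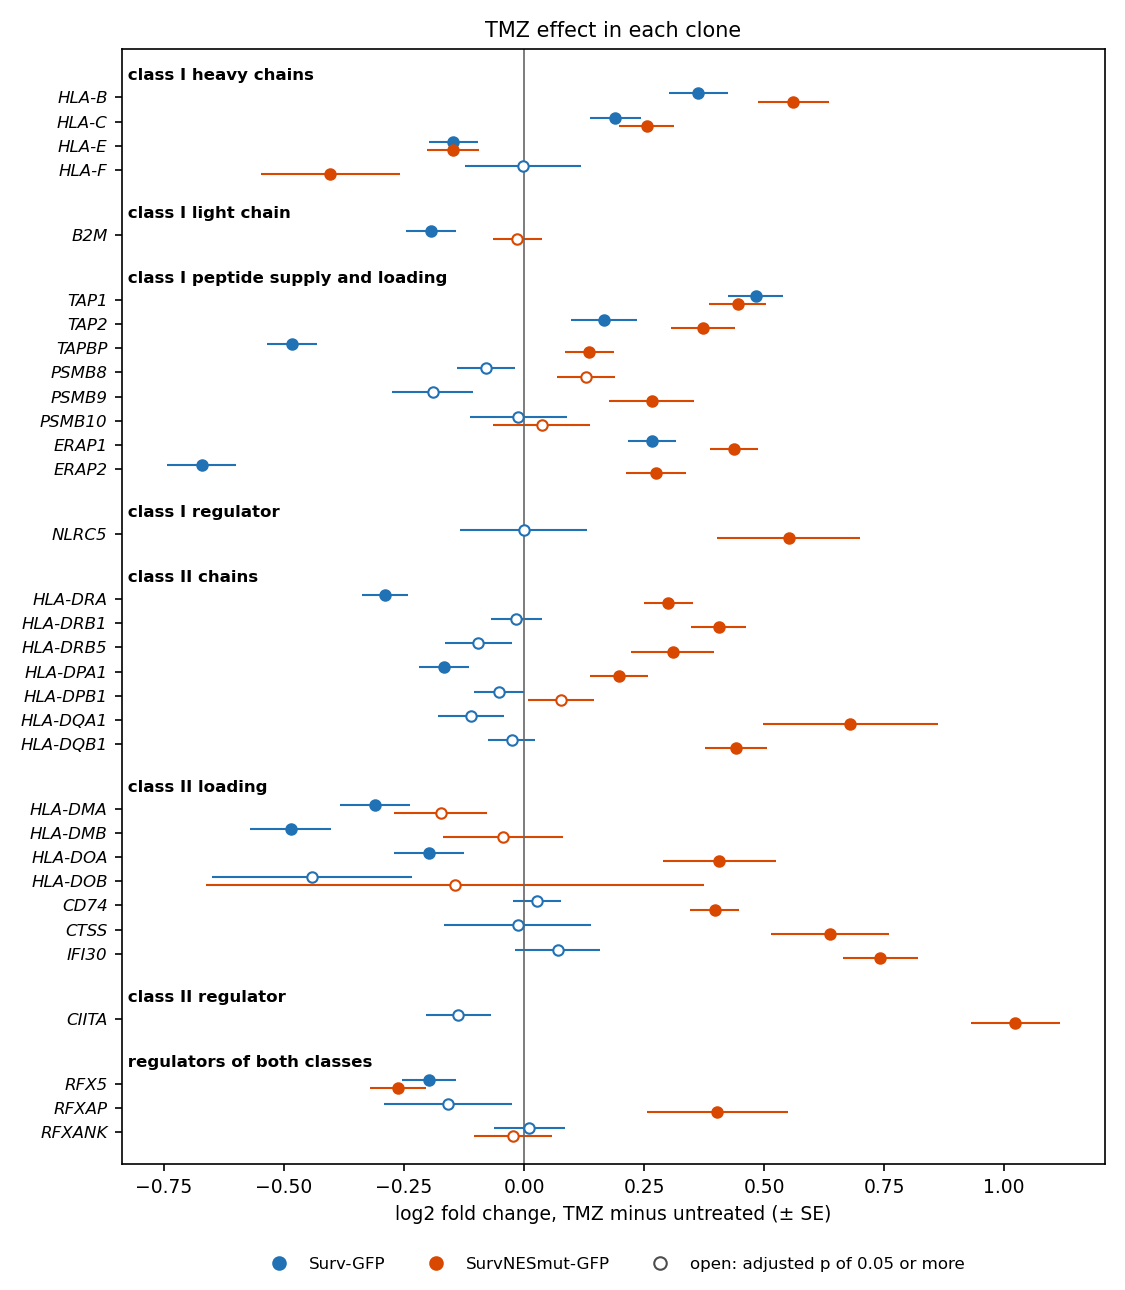
Log2 fold change of TMZ-exposed minus untreated cells (± SE) in Surv-GFP (blue) and SurvNESmut-GFP (orange) for the 32 tested members, grouped by role, with open symbols where the adjusted p was 0.05 or more. Of the 15 class II members, 11 rose in SurvNESmut-GFP and 0 in Surv-GFP, whereas HLA-B, HLA-C, TAP1, TAP2 and ERAP1 rose in each clone.

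Whether the responses themselves differed was tested as an interaction, the TMZ effect in SurvNESmut-GFP minus that in Surv-GFP. It was larger in SurvNESmut-GFP for 17 members and smaller for 0 at an adjusted p of 0.05, against 16.6% and 20.2% of all genes tested. Downward, 0 members had an unadjusted p under 0.05 by edgeR and 0 were called by DESeq2, and without the Surv-GFP TMZ replicate a HLA-F was called (-0.54, adjusted p 0.048). The median difference was 0.37 over the members and -0.00 over all genes. Class II held 12 of these 17 members, out of 15 tested, and class I held 4, out of 14 tested.

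The largest difference was that of CIITA, at 1.16 ± 0.11 (SE, adjusted p 1.0e-06, edgeR). Among the class II chains it was 0.79 for HLA-DQA1, 0.59 for HLA-DRA, 0.47 for HLA-DQB1, 0.42 for HLA-DRB1, 0.41 for HLA-DRB5 and 0.36 for HLA-DPA1, with adjusted p of at most 0.0090. HLA-DRA fell in Surv-GFP and rose in SurvNESmut-GFP, and so did HLA-DPA1 and HLA-DOA. For HLA-DPA1 and HLA-DOA both the fall and the rise lost their calls when certain single libraries were left out. CD74 differed by 0.37, HLA-DOA by 0.60, IFI30 by 0.67 and CTSS by 0.65. HLA-DMB differed by 0.44 (adjusted p 0.031, edgeR), which rested on its fall in Surv-GFP, and the call was lost with DESeq2 (0.079) and without the untreated Surv-GFP replicate a (0.088), the Surv-GFP TMZ replicate a (0.066), the untreated SurvNESmut-GFP replicate b (0.18) or the SurvNESmut-GFP TMZ replicate b (0.076). CTSS lost its call without the untreated Surv-GFP replicate a (adjusted p 0.16), the Surv-GFP TMZ replicate b (0.055) or the untreated SurvNESmut-GFP replicate b (0.065). The 3 class II members without a call were HLA-DPB1 at 0.13, HLA-DMA at 0.14 and HLA-DOB at 0.30.

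For class I the 4 members with a larger effect in SurvNESmut-GFP were ERAP2, TAPBP, NLRC5 and PSMB9. ERAP2 differed by 0.95 ± 0.10 (SE, adjusted p 1.3e-06, edgeR) and TAPBP by 0.62 ± 0.07 (SE, adjusted p 6.1e-06, edgeR). ERAP2 fell in Surv-GFP and rose in SurvNESmut-GFP. TAPBP fell in Surv-GFP, and its small rise in SurvNESmut-GFP was not called under 11 of 16 alternatives. PSMB9 differed by 0.46 (adjusted p 0.0078, edgeR, and 0.054 when the untreated SurvNESmut-GFP replicate b was omitted). The difference of NLRC5, 0.55 with an adjusted p of 0.040, was lost under 7 of 15 alternatives, among them DESeq2 (0.14) and the omission of 6 of the 8 libraries in turn (0.051 to 0.17). The 4 tested heavy chains had differences from -0.40 to 0.20 and B2M had 0.18, none past the threshold, although B2M passed it under 5 of 15 alternatives (0.25 with an adjusted p of 0.0035 without the SurvNESmut-GFP TMZ replicate a). TAP1, which rose in both clones, had a difference of -0.04 ± 0.08 (SE, adjusted p 0.77, edgeR), beside rises of 0.48 and 0.45. RFXAP, of the RFX complex, differed by 0.56 (adjusted p 0.036, edgeR) and lost the call under 6 of 15 alternatives, with DESeq2 (0.14) and on omission of 5 of the 8 libraries in turn (0.074 to 0.14).

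Other genes of the pathway were counted from lists written beside the members, to be read against the 30.1% of all genes tested that rose and 28.9% that fell in Surv-GFP and the 18.6% and 19.1% in SurvNESmut-GFP. Of 7 genes of class I assembly, 3 rose and 2 fell in Surv-GFP, and 2 rose and 3 fell in SurvNESmut-GFP. CANX, the chaperone calnexin that holds free heavy chains, rose by 0.47 in Surv-GFP, and its effect in SurvNESmut-GFP was smaller by 0.57 (adjusted p 5.1e-06, edgeR). PDIA3, its partner oxidoreductase, fell by 0.38 in SurvNESmut-GFP. Of 19 subunits of the constitutive proteasome and its activators, 8 rose and 2 fell in Surv-GFP and 4 rose and 7 fell in SurvNESmut-GFP, with log2 changes from -0.26 to 0.32 over both clones. In untreated cells 14 of these 19 were higher and 1 lower in SurvNESmut-GFP (34.7% and 29.4% of all genes tested), whereas the immunoproteasome subunits PSMB8 and PSMB10 did not pass and PSMB9 was lower.

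Of 20 interferon and STAT genes, 18 were tested. In Surv-GFP 4 rose and 4 fell (30.1% and 28.9% of all genes), and in SurvNESmut-GFP 2 rose and 3 fell (18.6% and 19.1%). IFNG had 0 counts in every library, which allows up to 3 counts by counting error alone, and IFNB1 had 0 to 2. IRF1, an interferon-induced activator of class I genes and of CIITA, rose in SurvNESmut-GFP from 32.5 and 31.7 to 50.6 and 45.8 CPM, by 0.59 ± 0.08 (SE, adjusted p 2.5e-05, edgeR). In Surv-GFP it was at 18.2 and 17.6 CPM without and 21.8 and 18.3 with TMZ. IRF1 was higher in untreated SurvNESmut-GFP than in untreated Surv-GFP, by 0.84 on the log2 scale (adjusted p 4.6e-07, edgeR), whereas CIITA and the class II chains were lower there. SOCS3, a feedback inhibitor of JAK-STAT signalling, fell from 56.0 and 58.4 to 10.1 and 9.18 CPM in Surv-GFP and from 38.6 and 30.8 to 16.2 and 21.2 CPM in SurvNESmut-GFP. IRF7 rose by 1.07 in Surv-GFP, and its effect in SurvNESmut-GFP was smaller by 0.91 (adjusted p 0.00024, edgeR).

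Of 11 further factors of the class II promoter, 6 rose and 3 fell in Surv-GFP (30.1% and 28.9% of all genes), and 0 rose and 1 fell in SurvNESmut-GFP (18.6% and 19.1%). The faller was NFYB, a subunit of NF-Y, at -0.26 (adjusted p 0.0075, edgeR), and CREB1 had -0.14 (adjusted p 0.050, edgeR). CREM, a CREB relative with repressor and activator forms, rose in Surv-GFP from 15.1 and 15.95 to 36.3 and 35.4 CPM, by 1.21, and CREBBP, a histone acetyltransferase, rose by 0.51. In SurvNESmut-GFP the effects were smaller by 1.11 for CREM and by 0.50 for CREBBP. In untreated cells 3 of the 11 were higher and 3 lower in SurvNESmut-GFP (34.7% and 29.4% of all genes). Of 9 lysosomal proteases and their inhibitors, 8 were tested, of which 0 rose and 2 fell in Surv-GFP (CTSV by 0.65 and CTSB by 0.16) and 1 rose and 2 fell in SurvNESmut-GFP (CTSV by 0.42 and LGMN by 0.22). Of 4 tested HLA pseudogenes, 0 rose and 1 fell in Surv-GFP (HLA-L by 0.59) and 0 moved in SurvNESmut-GFP.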

How the data were processed

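Total RNA of LN229 cells was sequenced by the authors, and the counts per gene deposited for the 8 libraries are raw, whole numbers. The submitters' processing notes name STAR 2.5.0b, Cufflinks 2.2.1 and edgeR. Counter, annotation, genome build and strandedness were not given in the sources used here, leaving overlapping genes unresolved. The deposited tables of the authors' own comparisons (log2 fold change, mean log2 CPM, F, p and FDR of edgeR quasi-likelihood tests) were not used. Rows for reads in no feature (11.2 to 14.3%) and ambiguous reads (1.19 to 1.28%) were left out of the library sizes. Counts were filtered by group (14201 genes), scaled by TMM (factors 0.978 to 1.02) and fitted over all 8 libraries with edgeR 4.0.16 in R 4.3.3 (quasi-likelihood F test with 4 group means, Benjamini-Hochberg over all genes tested, threshold 0.05, common biological coefficient of variation 4.09%). CPM are counts scaled to the TMM-adjusted library size. Levels per kilobase used merged exons of GENCODE v29. The fit was also run on simulated counts in which few genes changed, all of them upward. That setting differs from these data, where many genes moved in both directions, so the run does not check the error rate here. The members, the lists and the genes named were chosen with earlier results of these data known: values in every library are given for 13 members named by rule and for those with an adjusted p under 0.05 and a log2 fold change of at least 1 in any comparison, and from each other list 2 genes, those of smallest p per TMZ comparison, were considered. Alternatives were DESeq2 1.42.0, other scalings and filters, a replicate block, the compared libraries alone and the omission of each library. A count of 0 allows up to 3 counts by counting error alone.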

Additional observations from a re-analysis of the deposited data

Results flagged for a closer look

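The TMZ effect of 17 members differed between the clones by the interaction test (edgeR, adjusted over all genes tested). All of these differences, given as SurvNESmut-GFP minus Surv-GFP on the log2 scale with standard errors, were positive, and 16.6% of all genes tested passed in that direction. The regulators were CIITA at 1.16 ± 0.11, NLRC5 at 0.55 ± 0.20 and RFXAP at 0.56 ± 0.20. Among the class II chains the differences were 0.59 ± 0.07 for HLA-DRA, 0.42 ± 0.08 for HLA-DRB1, 0.41 ± 0.11 for HLA-DRB5, 0.36 ± 0.08 for HLA-DPA1, 0.79 ± 0.19 for HLA-DQA1 and 0.47 ± 0.08 for HLA-DQB1. The class II loading genes had 0.37 ± 0.07 for CD74, 0.44 ± 0.15 for HLA-DMB, 0.60 ± 0.14 for HLA-DOA, 0.65 ± 0.20 for CTSS and 0.67 ± 0.12 for IFI30. On the class I side ERAP2 had 0.95 ± 0.10, TAPBP 0.62 ± 0.07 and PSMB9 0.46 ± 0.12. The calls of NLRC5, RFXAP, HLA-DMB, CTSS and PSMB9 were lost when single libraries were left out. Groups of 2 libraries are too small for a test of single outlying samples.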

How the results depend on the processing

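No value changed direction past the threshold: over 32 tested members, 5 comparisons and up to 16 alternatives, 2365 values stayed on their side of the threshold, 119 lost the call and 44 gained one. The lower level of the 13 class II genes in SurvNESmut-GFP held in both clone comparisons under every alternative run. Rises in Surv-GFP numbered 3 with DESeq2 against 5, and 3 to 5 with 1 library left out. Falls there numbered 6 to 12 with 1 library left out and 9 to 13 under the other alternatives, against 10. Falls in SurvNESmut-GFP numbered 1 with library size alone and 1 with DESeq2 against 3, and 1 to 3 with 1 library left out. Rises there numbered 14 to 21 with 1 library left out and 18 to 22 under the others, against 21. Larger effects in SurvNESmut-GFP numbered 12 to 18 with 1 library left out and 14 to 22 under the others (22 with library size alone), against 17, and smaller ones 0 to 1 and 0, against 0. With 1 library left out, the lone sample of its group is assumed to vary like the other groups. Per kilobase, the ratio of class II to class I was 9.58, 7.94, 3.24 and 3.69 in untreated and TMZ-exposed Surv-GFP and untreated and TMZ-exposed SurvNESmut-GFP, against 6.56, 5.64, 2.16 and 2.56 without the division. The cause of the changed calls was not tested. The replicate letters did not pair the libraries (correlation of a minus b between groups from -0.067 to 0.083), and with a replicate block on the letters 20 members rose and 2 fell in SurvNESmut-GFP, with the calls of HLA-E and TAPBP lost (adjusted p 0.051 and 0.065, edgeR). With this block the counts were 5 and 10 in Surv-GFP, 17 and 0 for the difference of effects, 5 and 23 between the untreated and 8 and 20 between the TMZ-exposed clones. Calls over all 14201 genes tested changed with the setting too. In the main fit 4271 rose and 4100 fell in Surv-GFP, and 2648 rose and 2719 fell in SurvNESmut-GFP. With the block these were 4186, 4017, 2569 and 2610, and with DESeq2 3417, 3522, 1866 and 2070. Leaving out single libraries also changed the calls over all genes. Depth limits HLA-G, at 2 to 13 counts, and HLA-DOB in SurvNESmut-GFP, at 7 to 12 counts.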

Other observations

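Some ligands that NK cells read beside HLA class I rose with TMZ. Of 16 class I-like genes and NK ligands, 12 were tested, of which 7 rose, 1 fell and 4 did not pass in Surv-GFP (30.1% and 28.9% of all genes rose and fell) and 5 rose, 0 fell and 7 did not pass in SurvNESmut-GFP (18.6% and 19.1%; edgeR, adjusted p under 0.05). PVR, a ligand of the receptors DNAM-1 and TIGIT, went from 46.4 and 47.1 to 124 and 120.5 CPM in Surv-GFP and from 57.4 and 55.8 to 91.7 and 79.3 CPM in SurvNESmut-GFP. MICA, a stress-induced ligand of NKG2D, went from 9.48 and 8.33 to 27.3 and 26.2 CPM in Surv-GFP and from 11.8 and 14.5 to 21.0 and 26.5 CPM in SurvNESmut-GFP. The TMZ effect was smaller in SurvNESmut-GFP by 0.79 ± 0.09 (SE) for PVR and by 0.74 ± 0.18 for MICA on the log2 scale (adjusted p 5.4e-06 and 0.0038, edgeR). For HLA-DRA and CIITA the test gave a larger effect in SurvNESmut-GFP.

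Of 13 checkpoint ligands and costimulators, 6 were tested, of which 1 rose and 2 fell in Surv-GFP and 2 rose and 2 fell in SurvNESmut-GFP, against the same shares of all genes. CD276 (B7-H3) fell by 0.18 in Surv-GFP and by 0.49 in SurvNESmut-GFP, where it went from 162 and 167 to 111 and 123 CPM. TNFRSF14 rose by 0.74 in Surv-GFP (adjusted p 2.4e-05, edgeR). PDCD1LG2 rose by 1.64 in SurvNESmut-GFP (adjusted p 0.0011, edgeR), from 12 and 18 counts to 55 and 30, few reads that differed between the letters. CD40, a costimulatory receptor of antigen-presenting cells named here after its values were seen, had 0 or 1 count in each Surv-GFP library and 60 to 94 counts in each SurvNESmut-GFP library, the clone in which the class II chains were lower.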
